A study of Mus musculus with 3 samples.

Results

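The enzymes that make sterols were followed here through 8 genes, Hmgcs1, Idi1, Fdps, Fdft1, Sqle, Lss, Cyp51 and Dhcr7, in mast cell progenitors (MCps) with and without p85α. They were chosen by gene name, with every probe that the array design gives that name, and are 8 of the 27962 gene names on the array, with 18 of its 41174 probes. Bone marrow MCps, immature mast cells, came from 3 WT and 3 p85α-/- mice. Each culture grew for 7 days with IL-3 at 10 ng/mL, was sorted for surface KIT and the IgE receptor, and then received 100 ng/mL of SCF, the KIT ligand, for 48 hours. Each of 3 two-color Agilent arrays held 1 WT culture, labeled with Cy3, and 1 p85α-/- culture, labeled with Cy5. Both genotypes had the same cytokines, and no culture without SCF was measured. The deletion is that of the whole animal, not of mast cells alone, and the age and sex of the mice are not given in the sources used here. The dyes were never swapped, so genotype and dye cannot be told apart. The cDNA of these small sorted samples had been amplified by PCR before it was labeled.

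Cells build cholesterol from acetyl-CoA through mevalonate and the isoprenoids, and then through squalene and lanosterol. Most genes of this route are controlled together by the transcription factor SREBP-2, which is held in the endoplasmic reticulum by SCAP and INSIG while sterols are plentiful and is cut free by site-1 and site-2 proteases when they run short. It binds sterol regulatory elements in promoters, usually beside CCAAT boxes bound by NF-Y and GC boxes bound by SP1. PI3K signaling through AKT and mTORC1 is known to raise SREBP activity in growing cells, and mast cells need cholesterol for the membrane domains in which the IgE receptor signals.

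The promoter letters of 3 of the genes are shown because the values below set these genes side by side: Hmgcs1 and Idi1, whose ratios had the same sign on each array, and Cyp51, whose ratio had the other sign on array 1. Dhcr7 shared the signs of Hmgcs1 and Idi1 as well, and its windows are not printed. The sequences are the 250 bases before the start of the gene in RefSeq (GRCm38.p6), 5′ to 3′ on the strand of the gene, and capitals mark matches on either strand to 3 motifs, a sterol element (TCACNCCAC), a CCAAT box (CCAAT) and a GC box (GGGCGG), none of which overlap another in these windows.
Hmgcs1, chr13:119690101-119690350, plus strand: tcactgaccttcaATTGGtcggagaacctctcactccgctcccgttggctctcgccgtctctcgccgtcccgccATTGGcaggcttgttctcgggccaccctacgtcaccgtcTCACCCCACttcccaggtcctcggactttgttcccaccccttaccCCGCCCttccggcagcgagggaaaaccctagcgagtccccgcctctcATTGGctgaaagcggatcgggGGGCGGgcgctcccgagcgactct
Idi1, chr13:8885356-8885605, plus strand: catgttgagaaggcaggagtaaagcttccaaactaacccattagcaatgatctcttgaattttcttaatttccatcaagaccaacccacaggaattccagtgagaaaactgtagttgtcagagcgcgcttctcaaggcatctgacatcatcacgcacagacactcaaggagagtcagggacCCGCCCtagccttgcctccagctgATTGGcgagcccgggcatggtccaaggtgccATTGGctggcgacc
Cyp51, chr5:4104698-4104947, minus strand: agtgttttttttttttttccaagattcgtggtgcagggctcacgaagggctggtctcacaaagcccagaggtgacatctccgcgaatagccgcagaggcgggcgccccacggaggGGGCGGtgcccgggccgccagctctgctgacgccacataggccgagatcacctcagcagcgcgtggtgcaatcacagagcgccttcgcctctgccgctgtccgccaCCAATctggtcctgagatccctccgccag
A RefSeq window was found for 5 of the 8 genes, the other two being Lss and Dhcr7, and promoters of Sqle, Fdps and Fdft1 were not analysed here. Only the Hmgcs1 window held the sterol element in the form searched, once, 137 to 129 bases before the start. Other forms of the element were not searched. All 5 genes held at least 1 CCAAT box and at least 1 GC box within 250 bases of a start, Dhcr7 with 3 windows for its different starts. Counted by window, 1 of 7 held the sterol element, 5 of 7 a CCAAT box and 6 of 7 a GC box. Of 32851 such windows of all genes, 1.05% held the sterol element, 33.8% a CCAAT box and 32.7% a GC box. These are matches of letters and not measured sites.

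The scanner's intensities were background corrected (normexp, offset 50), the 6 channels were quantile normalized, and limma tested against 0 the within-array ratios of p85α-/- over WT. All levels and ratios below are on the log2 scale, and errors are SDs over the 3 cultures of a genotype or the 3 arrays. Before normalization the median signal lay between 71.5 and 141.2 in WT channels and between 206.6 and 517.3 in p85α-/- channels, with a local background of 32.5 to 33.5 and of 51. The log2 ratios of whole arrays were nearly unrelated, with Pearson's r over all tested probes of 0.01, 0.17 and -0.03 for the 3 pairs of arrays. Pik3r1, which encodes p85α, had mean ratios of 0.59, -0.58, 0.32 and -0.04 at its 4 probes and so did not check the labels. The probe at -0.58 was lower in p85α-/- on all 3 arrays, without overlap of the genotypes, and that at 0.32 was higher on all 3. Whether these probes lie in the disrupted part of the gene was not analysed. Mast cell markers had a mean ratio above 0 for 10 of 11 genes, against 44.8% of all probes, the exception being Mcpt4 (-0.89, and -1.18 at its other probe). Their summed linear level ran from 28500 to 66337 in WT and from 90133 to 155603 in p85α-/-. Cma1 had the highest level of this list in each p85α-/- culture (16.65, 15.52 and 14.93). Ms4a2, a chain of the IgE receptor, was well above background in 1 of 3 WT cultures. Both Kit, by whose protein the cells were sorted (2.06 ± 0.56) and Cma1 (2.37 ± 1.76) passed the criteria given next. Neutrophil markers summed to 8704 to 18185 in WT and to 65919, 2885 and 220629 in p85α-/- replicates 1, 2 and 3. Of the 5 macrophage markers and of the basophil, B cell, T cell and erythroid markers, 2 each, 0 passed those criteria. What part such differences in cell make-up had in the results below was not tested, and fewer cells of a type and less RNA per cell cannot be told apart in these bulk samples.

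None of the 8 genes differed between p85α-/- and WT MCps by the criteria of the study's methods, at least 1.5-fold with an unadjusted p under 0.05, where 4.44% of the 41157 tested probes did (2.78% higher and 1.66% lower in p85α-/-). With Benjamini-Hochberg adjustment 0 genes had a p under 0.05, and 0% of all probes did, against 1829 probes at an unadjusted p under 0.05. The 8 genes all had an adjusted p (limma) of 0.908 or above. Taking the brightest probe of each gene, 6 genes had a mean ratio above 0 and 2 had one below, against 44.8% of all probes above 0. With ratios centered on the median of each array in place of quantile normalization, 8 genes and 54.7% of all probes were above 0. The mean ratios ran from -0.42 for Lss to 1.84 for Sqle with a median of 0.40, against -0.05 over all probes. That median was 1.098 with median centering, 0.187 with the scanner software's processed signals and 0.192 when all probes of a gene were averaged. Without replicate 1 the median was -0.046 with 3 genes above 0, and without replicate 3 it was 0.011 with 4. A gene higher in p85α-/- on all 3 arrays was found once (Sqle), against 12.5% of all probes, and 0 genes were lower on all 3, against 13.3%. For 0 of the 8 genes did the 3 levels of one genotype lie apart from the 3 of the other, against 10.5% of all probes. By the scanner software's flag, the brightest probe of each of the 8 genes was well above background in all 6 channels.

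**Figure D1:**
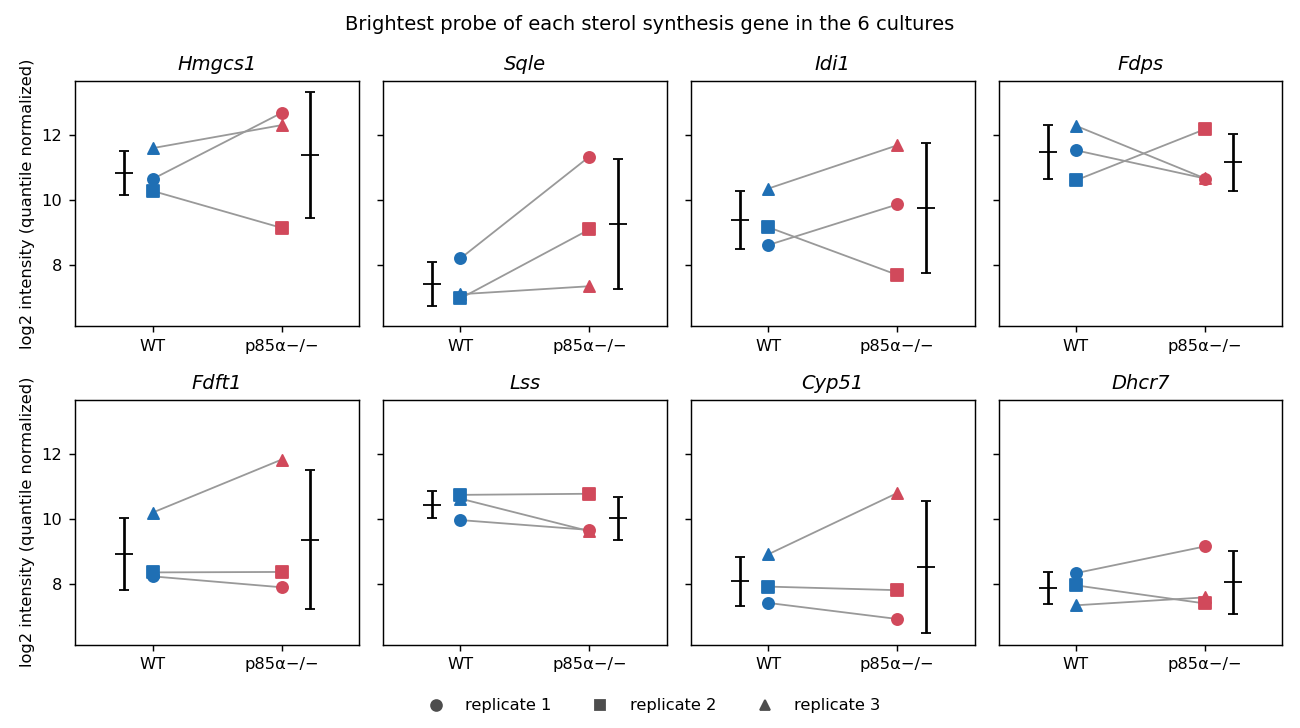
Quantile normalized log2 intensity of the brightest probe of each of the 8 genes in 3 WT (blue) and 3 p85α-/- (red) cultures; symbols give the replicate, grey lines join the cultures of one array, and black bars are the mean ± SD of a genotype. In every panel the WT and p85α-/- points overlap, and the lines of one gene run in different directions except for Sqle.

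Hmgcs1 encodes the cytosolic HMG-CoA synthase, which feeds the mevalonate route. Its brightest probe had levels of 10.65, 10.28 and 11.60 in WT replicates 1, 2 and 3 and of 12.68, 9.14 and 12.31 in p85α-/-. The p85α-/- culture was the higher one on arrays 1 and 3 and the lower one on array 2, and it held both the highest and the lowest of the 6 levels. The ratios of 2.04, -1.14 and 0.71 gave a mean of 0.54 ± 1.59 (SD, n = 3; adjusted p = 0.926 by limma). Idi1, the isomerase that makes dimethylallyl diphosphate from isopentenyl diphosphate, had ratios of the same sign on each array. Its levels were 8.62, 9.17 and 10.35 in WT and 9.86, 7.70 and 11.68 in p85α-/-, so that here too the highest and the lowest culture were both p85α-/-. The ratios of 1.25, -1.47 and 1.33 gave a mean of 0.37 ± 1.59. Without replicate 2 the mean of Idi1 was 1.29 and it passed both criteria, whereas it was -0.068 without replicate 1 and -0.11 without replicate 3. The mean of Hmgcs1 was -0.21 without replicate 1, 1.88 with median centering and 0.07 when all its probes were averaged. The promoter windows of both genes are printed above.

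On the same arrays the neutrophil marker Mpo, encoding myeloperoxidase, had ratios of 2.90, -3.37 and 5.39, with the signs of Hmgcs1, Idi1 and Dhcr7. Mpo was picked with its values known, it makes up most of the summed neutrophil level in each p85α-/- culture, and the other 6 neutrophil markers did not share these signs. On array 2, where Mpo was lower in p85α-/-, S100a8 (0.39), S100a9 (0.49) and Camp (0.23) had ratios above 0. In that list 4 of 7 genes had a mean ratio above 0, and S100a8 (2.14 ± 1.56) and S100a9 (2.55 ± 1.79), which encode calprotectin, passed both criteria. S100a8 was well above background in 2 of 3 WT cultures. The part of these markers in the ratios of Hmgcs1 and Idi1 was not tested.

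Fdps makes farnesyl diphosphate, from which the sterol route and protein prenylation both draw. Its levels were 11.53, 10.61 and 12.29 in WT and 10.66, 12.18 and 10.66 in p85α-/-. The order was the opposite of that of Hmgcs1 and Idi1 on every array, with p85α-/- lower on arrays 1 and 3 and higher on array 2. The ratios of -0.87, 1.57 and -1.62 gave a mean of -0.31 ± 1.67 (adjusted p = 0.963 by limma), which became 0.74 with median centering and 0.35 without replicate 3.

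Fdft1, squalene synthase, commits farnesyl diphosphate to sterols. It had levels of 8.22, 8.34 and 10.18 in WT and of 7.89, 8.36 and 11.81 in p85α-/-. Both genotypes were high in replicate 3 and the other 4 cultures lay between 7.89 and 8.36. The ratios were -0.34, 0.01 and 1.63, with a mean of 0.44 ± 1.05. Sqle, squalene epoxidase, catalyzes the next step, an oxygen-dependent one that limits the rate of the route after squalene. Its only probe had levels of 8.20, 6.97 and 7.10 in WT and of 11.34, 9.10 and 7.35 in p85α-/-. The p85α-/- culture was higher on every array, but by little on array 3, where its level lay below that of WT replicate 1, so the genotypes overlapped. The scanner signals behind these levels were 109, 49.4 and 66.6 in WT and 6614, 1306 and 128 in p85α-/-. In WT replicate 2 the local background was 40, so the ratio of array 2 rests on a WT signal near background. The ratios of 3.14, 2.12 and 0.25 gave a mean of 1.84 ± 1.47 (95% confidence interval -0.05 to 3.72), a 3.57-fold difference with an unadjusted p of 0.054 and an adjusted p of 0.908 by limma. Sqle was the only one of the 8 genes whose mean exceeded its SD. It passed the 1.5-fold and unadjusted p criteria under 6 of 15 alternative settings, among them the analysis without replicate 3 (2.63), but not without replicate 1, where the mean was 1.18, or without replicate 2, where it was 1.69. Lss, lanosterol synthase, folds the epoxide into the first sterol. Its levels were 9.95, 10.73 and 10.61 in WT and 9.65, 10.76 and 9.61 in p85α-/-, the narrowest range of the 8 genes at 1.15 over the 6 cultures. The ratios of -0.30, 0.03 and -1.002 gave a mean of -0.42 ± 0.53, which was 0.27 with median centering.

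Cyp51, the lanosterol demethylase, starts the conversion of lanosterol toward cholesterol. Its levels were 7.40, 7.91 and 8.90 in WT and 6.91, 7.80 and 10.79 in p85α-/-. As for Fdft1, replicate 3 was highest in both genotypes. The ratios of -0.49, -0.11 and 1.89 gave a mean of 0.43 ± 1.28 with replicate 3, and one of -0.30 without it. The mean was -0.02 from the scanner software's processed signals. Dhcr7, which encodes the reductase of the last step on one branch to cholesterol, had levels of 8.32, 7.94 and 7.33 in WT and of 9.14, 7.39 and 7.58 in p85α-/-. Only p85α-/- replicate 1 lay above all WT cultures. The ratios of 0.82, -0.56 and 0.24, with the signs of Hmgcs1 and Idi1 on each array, gave a mean of 0.17 ± 0.69. The 95% confidence intervals of the means of the 7 genes other than Sqle lay between -2.43 and 2.57. Each of them included 0 and a difference of 1 on the log2 scale in at least 1 direction.

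Cultures of one genotype differed from each other too. Over the 8 genes, the median absolute difference between cultures of one genotype was 1.23, against 0.85 between the cultures of one array. In 5 of 8 genes the difference within a genotype was the larger one, against 47.5% of all probes, and in Sqle, Fdps and Hmgcs1 it was the smaller one. The range from the lowest to the highest culture was wider in p85α-/- than in WT at the brightest probes of 7 of 8 genes, all but Fdps, but at 4 of the 10 other probes, against 49.5% of all probes, and the difference was not tested. At the brightest probes its median was 1.41 in WT and 3.71 in p85α-/-, against 0.72 and 0.75 over all probes. Idi1 and Sqle had the widest p85α-/- ranges, 3.99 each, followed by Fdft1 with 3.93 and Cyp51 with 3.88. The cultures that were high differed from gene to gene. P85α-/- replicate 1 was the highest of all 6 for Hmgcs1, Sqle and Dhcr7, and p85α-/- replicate 3 was the highest for Idi1, Fdft1 and Cyp51. On array 1, 4 genes were at least 1.5-fold higher and 1 was at least 1.5-fold lower in p85α-/-, against 17.3% and 20.3% of all probes. On array 2 these were 2 and 2 genes, against 23.0% and 19.0%, and on array 3 they were 4 and 2, against 17.6% and 23.7%. Among the 28 pairs of genes, Pearson's r of the levels over the 6 channels was above 0 for 10, with a median of -0.17. It was highest for Fdft1 and Cyp51 (0.98), followed by Hmgcs1 and Idi1 (0.84), and lowest for Hmgcs1 and Lss (-0.77). These values describe 6 channels, which share 3 arrays.

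Other probes of a gene often gave other ratios. All probes of a gene agreed in the sign of their mean for 3 of the 7 genes with more than 1 probe (Idi1, Fdps and Dhcr7), and they agreed in sign on 7 of 21 combinations of gene and array. Over the 18 probes, 9 means were above 0 and 9 below, with a median of 0.07, and 0 passed the 1.5-fold and unadjusted p criteria. The levels of different probes are not set against each other here, and by the scanner software's flag 13 of the 18 probes were well above background in all 6 channels.

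**Figure D2:**
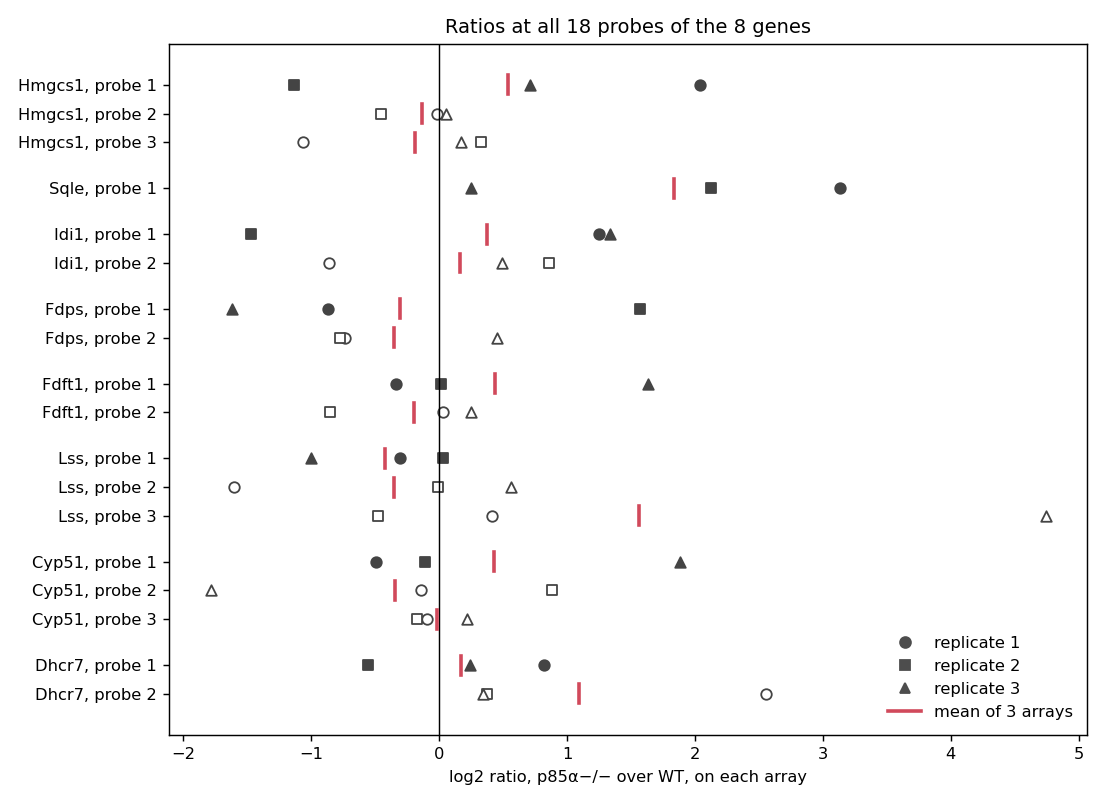
Log2 ratios, p85α-/- over WT, of the 3 arrays (symbols) at all 18 probes of the 8 genes, with the mean of a probe in red; filled symbols are the brightest probe of a gene. Apart from 1 probe each of Lss and Dhcr7 and the probe of Sqle, no mean exceeds 1, and the probes of Hmgcs1, Fdft1, Lss and Cyp51 fall on both sides of 0.

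The other probes of Hmgcs1 had mean ratios of -0.14 and -0.19, and the latter was well above background in 2 of 6 channels. At the former, the spot of array 1 had signals of 71.7 (WT) and 132 (p85α-/-) but local background medians of 5355 and 4698, so its level there lay below its background although the software's flag called it well above. Its ratios on arrays 2 and 3 were -0.45 and 0.06. The second probe of Idi1 had ratios of -0.86, 0.86 and 0.49, with the sign of the brightest probe on array 3 only. The second probe of Fdps had -0.73, -0.78 and 0.45 and that of Fdft1 0.03, -0.85 and 0.25. Lss showed the widest gap. The remaining Lss probe had levels of 7.77, 8.26 and 7.61 in WT and of 8.19, 7.79 and 12.35 in p85α-/-, so that a single culture, p85α-/- replicate 3, gave it a ratio of 4.74 on array 3 against 0.41 and -0.48. Its mean of 1.56 ± 2.79 compares with -0.42 and -0.35 at the others. At the second probe of Dhcr7, p85α-/- replicate 1 had a level of 10.08 and the other 5 cultures lay between 6.40 and 7.52. Its ratios of 2.56, 0.37 and 0.34 were all above 0, with a mean of 1.09 ± 1.27, but WT was well above background there in 1 of 3 cultures. The other probes of Cyp51 had means of -0.35 and -0.02, and they were not well above background in 4 and in 2 of 6 channels.

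The array annotation, which names no genome build, places the brightest probes of Sqle on chromosome 15 (59397289 to 59397348, plus strand), of Fdps on chromosome 3 (89212905 to 89212964, minus strand), of Lss on chromosome 10, of Cyp51 on chromosome 5 (4098039 to 4098445, minus strand), of Fdft1 on chromosome 14 (58010811 to 58015051, minus strand) and of Dhcr7 on chromosome 7 (140275057 to 140275116, plus strand). For 15 of the 18 probes the placed stretch is 60 bases, and it is longer for 3, among them the brightest probes of Cyp51 (407 bases) and Fdft1 (4241 bases), as for a probe whose match is split by an intron. Both Idi1 probes are placed on chromosome 2, whereas RefSeq (GRCm38.p6) has the gene on chromosome 13. The Hmgcs1 probes lie on sequence not assigned to a chromosome in the annotation, and RefSeq has that gene on chromosome 13 as well. Of the 18 probes, 15 were designed on a RefSeq transcript and the others on cDNA clones, among them the brightest probe of Fdps. Exon and UTR positions of the probes were not analysed here.

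Most of the remaining genes of the route did not pass the criteria either. Among 12 other enzymes of sterol synthesis, 7 had a mean ratio above 0, with a median of 0.23, and 1 passed the 1.5-fold and unadjusted p criteria in each direction. Sc4mol, the C4-methylsterol oxidase that acts after Cyp51, had levels of 9.52, 8.72 and 7.29 in WT and of 11.63, 9.87 and 10.02 in p85α-/-. The 3 p85α-/- cultures lay above the 3 WT cultures, with a mean ratio of 2.00 ± 0.80 (SD, n = 3; adjusted p = 0.908 by limma), and Sc4mol met both criteria under 13 of 15 alternative settings, the exceptions being a test without the pairing or limma's shared spread and the deposited table (1.82). Mvk, mevalonate kinase, was lower in p85α-/- on all 3 arrays, with levels of 9.11, 12.32 and 12.02 in WT and of 7.70, 10.60 and 11.21 in p85α-/-. The genotypes overlapped, because WT replicate 1 was low, and the mean ratio was -1.31 ± 0.46 (adjusted p = 0.908 by limma). Mvk met both criteria under 8 of 15 alternative settings, but not without replicate 1 (-1.27) or replicate 2 (-1.11), and its mean was -0.58 with median centering and -0.38 in the deposited table. Its other probe had a mean of -0.60.

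**Figure D3:**
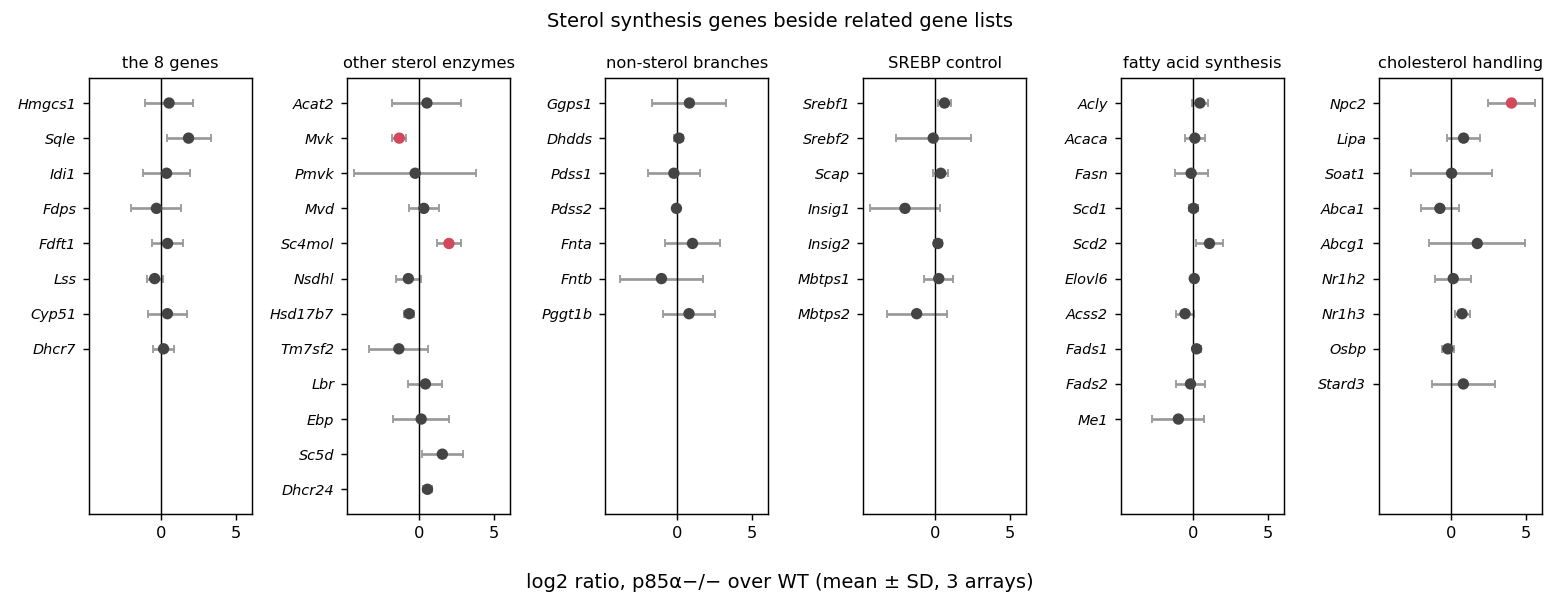
Mean log2 ratio of p85α-/- over WT with its SD over 3 arrays for the 8 genes and for 5 lists of related genes, brightest probe of each; red marks genes at least 1.5-fold different with an unadjusted p under 0.05. Only Sc4mol, Mvk and Npc2 are red, and most error bars cross 0.

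Genes that control SREBP had mean ratios above 0 for 4 of 7, with a median of 0.19, and 0 passed. Srebf1, which encodes SREBP-1, had 0.63 ± 0.42, and Scap had 0.38 ± 0.51. In this list 3 of 7 genes, Srebf1 and Scap among them, were higher on all 3 arrays, against 12.5% of all probes. With median centering Srebf1 and Scap passed the 1.5-fold and unadjusted p criteria, at 1.57 and 1.05, as did Srebf1 with loess (0.66). Insig1, itself a well known SREBP target and the anchor of the SCAP complex, had ratios of -2.62, 0.55 and -3.93 with a mean of -2.00 ± 2.30, and a mean near 0 at its other probe. Without replicate 2, Insig1 passed at -3.27. Mbtps2, the site-2 protease, had -1.22 ± 2.00, and between -2.23 without replicate 2 and -0.23 without replicate 1. Srebf2, which encodes SREBP-2 and was added outside the rule for its role, had -0.12 ± 2.50, and its other probes had means of 0.68, -1.50 and 2.07. Branches that use the isoprenoids for other ends were above 0 for 4 of 7, with a median of 0.13, and 0 passed. They ranged from Fntb, the β subunit of farnesyltransferase (-1.04 ± 2.78), and Pdss1 of ubiquinone synthesis (-0.21 ± 1.76) to Ggps1, which makes geranylgeranyl diphosphate (0.83 ± 2.47), and Fnta, the α subunit that Fntb pairs with (1.03 ± 1.82). Fnta was well above background in 2 of 3 cultures of each genotype and Fntb in 2 of 3 p85α-/- cultures. Fatty acid genes, which SREBP-1 controls, were above 0 for 6 of 10, with a median of 0.06, and 0 passed. The highest were the desaturase Scd2 (1.099 ± 0.87) and the citrate lyase Acly (0.46 ± 0.52), and the lowest were malic enzyme Me1 (-0.97 ± 1.74) and the acetyl-CoA synthetase Acss2 (-0.53 ± 0.62). Scd2 was well above background in 2 of 3 WT cultures.

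Genes that move, store or sense cholesterol were above 0 for 7 of 9, with a median of 0.74, and 1 passed. Npc2, the lysosomal protein that hands cholesterol to NPC1, had levels of 8.31, 7.31 and 8.53 in WT and of 12.78, 12.65 and 10.81 in p85α-/-. All p85α-/- levels lay above all WT levels, and the ratios of 4.47, 5.33 and 2.29 gave a mean of 4.03 ± 1.57 (SD, n = 3; adjusted p = 0.839 by limma), a 16.3-fold difference. Npc2 met the 1.5-fold and unadjusted p criteria under 14 of 15 alternative settings, all but the deposited table (1.33). Stard3 of this list had ratios of -0.91, 3.17 and 0.22, with a mean of 0.82 ± 2.11. It is also in the study's own table of altered genes, chosen on these arrays, where it stands among the lower ones. Over the 5 lists of 45 genes together, 28 had a mean ratio above 0, 2 passed as higher and 1 as lower, and the genotypes did not overlap for 5, against 44.8%, 2.78%, 1.66% and 10.5% of all probes.

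The mean level of the 8 genes was 9.11, 8.99 and 9.80 in WT replicates 1, 2 and 3 and 9.77, 9.05 and 10.22 in p85α-/-. It was highest in p85α-/- replicate 3 and lowest in WT replicate 2, and the genotypes overlapped. Of 25539 probes well above background in every channel, those of BC069963 (r = 0.99), Mbd1, Dgkq, Spry2 and A230062G08Rik (each r = 0.98) were the 5 most like this profile by Pearson's r over the 6 channels. Dgkq encodes a diacylglycerol kinase and ranged from 7.60 to 11.81, whereas Spry2, an inhibitor of receptor tyrosine kinase signaling, ranged from 7.13 to 8.21. With 6 channels and this many probes such values are a description only.

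**Figure D4:**
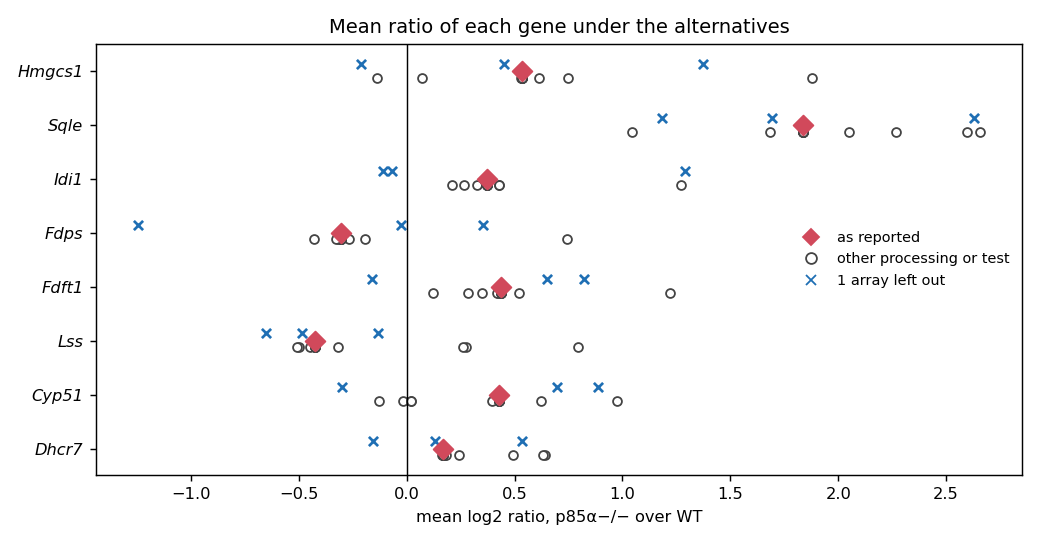
Mean log2 ratio of p85α-/- over WT for each of the 8 genes as reported (red diamonds), under other processing or another test (open circles) and with 1 array left out (blue crosses). Sqle is above 0 throughout, between 1.04 and 2.66, and each of the other genes has points on both sides of 0.

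The 8 genes differed in how far the mean ratio depended on the setting. Sqle stayed above 0 under all 15 alternatives, from 1.04 in the authors' deposited table to 2.66 with the scanner software's log ratio. The sign of Fdft1 and Dhcr7 changed under 1 of 15, that of Hmgcs1, Idi1 and Fdps under 2, and that of Lss and Cyp51 under 3. Of the 18 probes of these genes, 0 carried in the deposited table their own scanner ratio for replicates 2 and 3, whereas all 18 did for replicate 1. The counts of alternatives, here and above, include that table, which therefore does not check the ratios of the named genes. Apart from it, the lowest mean of Sqle was 1.18, without replicate 1.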

How the data were processed

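Cultures of MCps from 3 WT and 3 p85α-/- mice were compared on 3 arrays, grouped by the labels. The members and gene lists were chosen with earlier results of these data known. Per the file headers, the authors extracted spots with Agilent Feature Extraction 9.5.1.1. The deposited intensity values are the mean signal and background median of each spot in each channel, not normalized, with processed signals and flags beside them. That software also computed the deposited log10 ratios, Cy5 over Cy3, and the authors' series table gives such log10 values, 1 for each probe on each array. For replicates 2 and 3, 190 and 226 of 40929 probes with 1 spot carry the ratio that the scanner gives them there (tolerance 1.5e-05), so the table served only as an alternative. Columns of no sample numbered 0.

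Intensities were corrected with normexp (offset 50) and quantile normalized over 6 channels, the normalization that the study's methods name, in R 4.3.3 with limma 3.58.1. Control and outlier spots were left out and spots of a probe averaged. limma tested the log2 ratios of 41157 probes with a value on every array, with Benjamini-Hochberg adjustment over all of them. The deposited intensities were on a linear scale, and log2 was taken here. The brightest probe stood for a gene. Named were all 8 genes, from each list the genes past 1.5-fold and an unadjusted p under 0.05 (otherwise the 2 highest and 2 lowest), the 5 probes most like the 8 genes, and Pik3r1. Outside that rule, Srebf2, Mpo, Ms4a2, Mcpt4, Camp and Stard3 were added with their values known, and marker lists with 0 such genes are given by counts. A RefSeq transcript was matched for 13 of the 18 probes. The test was checked on simulated data. It found the altered probes there at a spread well below that of these arrays, but not at their own spread. An adjusted p above 0.05 therefore says little about whether a gene differed. The number of arrays limits the precision.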

Additional observations from a re-analysis of the deposited data

How the results depend on the processing

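The 15 alternatives were planned with earlier results known. Under none of those counted over all probes did a probe reach an adjusted p under 0.05 (lowest 0.368, median centering), with 1262 to 3165 probes at an unadjusted p under 0.05. Averaging the probes of each gene was not counted in this way. Of the 8 genes 0 passed 1.5-fold and an unadjusted p under 0.05, but 1, Sqle, did without background subtraction, with the software's processed signals, with median centering, with its log ratio and with dim probes left out. With 1 replicate left out, 0 to 1 passed, Idi1 (1.29) without replicate 2 and Sqle (2.63) without replicate 3. The count above 0, 6, ran from 3 to 6 with 1 replicate left out, lowest without replicate 1, and the median, 0.40, from -0.046 to 0.67, lowest without replicate 1 and highest without replicate 2. With median centering the median was 1.098, while that of all probes moved from -0.05 to 0.09 and their share above 0 from 44.8% to 54.7%, so that these ratios stood further above all probes than as reported.

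Signs changed under median centering for Fdps (0.74), Lss (0.27) and Pdss1 (0.23), with the processed signals for Cyp51 (-0.016) and Pdss1 (0.067), with the software's log ratio for Pdss1 (0.10), and for Lss (0.26) when all probes of a gene were averaged. In the deposited table they changed for Hmgcs1 (-0.14), Lss (0.79), Cyp51 (-0.13), Pdss1 (0.057), Fnta (-0.89), Scap (-0.027), Srebf1 (-0.33), Acss2 (0.47) and Scd2 (-0.96). Those changes say little about the named genes, because most probes there do not carry their own ratio for replicates 2 and 3. Ggps1 passed without replicate 3 (2.18) and Scd2 with the software's log ratio (1.93). With 1 replicate left out, Sqle ran from 1.18 to 2.63, Hmgcs1 from -0.21 to 1.37, Idi1 from -0.11 to 1.29, Fdps from -1.24 to 0.35, Fdft1 from -0.16 to 0.82, Cyp51 from -0.30 to 0.89, Dhcr7 from -0.16 to 0.53, Fntb from -2.48 to 0.30, Pdss1 from -0.83 to 0.80, Ggps1 from -0.24 to 2.18 and Me1 from -1.55 to 0.026, and with no change of sign Lss from -0.65 to -0.13, Fnta from 0.029 to 1.80, Scap from 0.092 to 0.54, Acly from 0.19 to 0.70, Insig1 from -3.27 to -1.03, Srebf1 from 0.41 to 0.83, Scd2 from 0.60 to 1.37 and Acss2 from -0.89 to -0.33. Apart from the arrays left out, the cause was not tested. The ratio within an array is the pairing by replicate; limma with no replicate block put 1809 probes past both criteria against 1829, with 0 of the 8 genes, and ended the call of Mvk, as the unpaired t-test did for Mvk and Sc4mol, whose calls held in the paired one. Student's t-test, which the study names, gave 1125 probes unpaired and 819 paired. Dim probes are limited by the share of spots well above background, 69.4% to 85.3% in WT and 77.3% to 93.8% in p85α-/- channels.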
